A study of Homo sapiens with 6 samples.

Results

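Intermediate filaments are the rope-like part of the cytoskeleton, built from coiled-coil proteins that differ by cell type. Mesenchymal cells rely on vimentin, simple epithelia on pairs of acidic and basic keratins such as keratin 18 and keratin 8, muscle on desmin, and neurons on the neurofilament triplet, while nestin marks neural progenitors and co-assembles with vimentin. Ewing sarcoma cells carry a fusion transcription factor, EWS-FLI1, and can show mesenchymal, neural and keratin-positive features together.

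The genes described here are KRT8, KRT18, KRT19, KRT10, VIM, NES, DES, NEFL, NEFM and NEFH, taken by gene symbol, 10 of the 25268 symbols in the deposited table. All 10 symbols were listed, and 8 of them reached 1 FPKM or more in 2 or more libraries, the filter for testing. FPKM are fragments scaled by transcript length and by the mapped fragments of the library, so levels can be compared between genes per length. The 8 had at least 1 FPKM in all 6 libraries, and KRT19 and DES were under 1 FPKM in all 6.

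RNA was taken from A673 cells, an Ewing sarcoma line, 72 h after transfection with esiRNA, a pool of short interfering RNAs made by digesting long double-stranded RNA. The groups were esiFLI1, aimed at the EWS-FLI1 fusion, esiUSP9X, aimed at the deubiquitinase USP9X, and the non-targeting control esiGFP, with 2 libraries each. All groups are transfected cultures of this single line, so nothing here speaks for other Ewing lines. The series profiled the knockdown of USP9X beside that of EWS-FLI1.

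The targets checked the labels first. FLI1 had 12.7 and 14.1 FPKM in esiFLI1, 24.98 and 31.9 in esiUSP9X, and 24.1 and 36.5 in esiGFP. USP9X had 26.2 and 37.7 FPKM in esiFLI1, 5.31 and 7.10 in esiUSP9X, and 20.6 and 26.6 in esiGFP. Neither target passed limma without a block (adjusted p = 0.13 for FLI1 in esiFLI1 and 1 for USP9X in esiUSP9X), and both fell in the blocked fit (4.4e-04 and 4.5e-04). USP9X in esiFLI1 changed by 0.41 (limma adjusted p = 0.60), a rise called in the blocked fit (adjusted p = 0.013). FLI1 in esiUSP9X changed by -0.07 (limma adjusted p = 1). Of 7 markers of the tumour type, 6 passed the filter, with a summed 255 to 282 FPKM in esiFLI1, 561 to 635 in esiUSP9X and 609 to 649 in esiGFP. The seventh, the surface protein CD99, was listed at 0 in every library, which in a table without counts need not mean absence. The read depth of the libraries is unknown. The symbol MIR6723 alone held 35.8% and 50.9% of the summed FPKM in esiFLI1, 33.2% and 42.6% in esiUSP9X, and 33.95% and 41.75% in esiGFP. Scaling to a common sum without it is among the alternatives given below.

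Changes were tested with limma on log2(FPKM + 1) over the 12169 genes past the filter (kept genes), with calls made at a Benjamini-Hochberg adjusted p under 0.05. Libraries with the same replicate number deviated together, so a fit with that number as a block is called the blocked fit and is given where it changes a call. In the esiFLI1 comparison limma called 2.81% of kept genes without the block and 42.1% with it, so a blocked call is common there. In the esiUSP9X comparison the shares were 0.0247% and 0.238%.

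For 3 members that changed in esiFLI1 in the blocked fit, the 250 bases before the gene's start are shown because FLI1 is an ETS factor, a family that binds DNA at a GGAA core. The sequences are RefSeq's, build GRCh38.p14, and read 5′ to 3′ on the gene's strand. Capitals mark GGAA or its reverse complement TTCC. VIM is at chr10:17227991-17228240 on the plus strand, NES at chr1:156677408-156677657 on the minus strand, and KRT10 at chr17:40822615-40822864 on the minus strand.
VIM: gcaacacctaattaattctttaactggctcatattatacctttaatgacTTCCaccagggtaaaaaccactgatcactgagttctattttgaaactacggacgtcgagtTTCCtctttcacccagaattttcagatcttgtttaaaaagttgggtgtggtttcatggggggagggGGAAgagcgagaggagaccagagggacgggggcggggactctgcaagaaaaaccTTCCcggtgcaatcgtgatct
NES: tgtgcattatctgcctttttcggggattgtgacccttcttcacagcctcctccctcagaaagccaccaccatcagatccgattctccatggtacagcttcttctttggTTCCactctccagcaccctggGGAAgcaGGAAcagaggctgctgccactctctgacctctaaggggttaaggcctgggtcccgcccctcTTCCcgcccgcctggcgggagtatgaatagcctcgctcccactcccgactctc
KRT10: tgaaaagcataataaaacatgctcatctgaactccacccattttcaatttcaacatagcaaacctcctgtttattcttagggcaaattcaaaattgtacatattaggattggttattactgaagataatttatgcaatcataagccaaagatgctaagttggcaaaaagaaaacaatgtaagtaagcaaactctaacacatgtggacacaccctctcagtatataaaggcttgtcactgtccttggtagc

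The VIM and NES windows held 4 GGAA sites each, counted on both strands, and the KRT10 window held 0. Of 35116 RefSeq windows of the same length, 92.7% held at least 1 GGAA and 34.3% held at least 4. The tandem repeat GGAAGGAA was in none of the 3 windows (0 sites) and in 3.06% of all windows. The GC box GGGCGG was found at 1 place in VIM, 2 in NES and 0 in KRT10, and 42.6% of all windows held it. The KRT10 window alone of the 3 held TATAAA, found in 10.7% of all windows, and the AP-1 letters TGANTCA were in none of them, against 6.57% of all windows. GGAAGGAA contains the GGAA core. For KRT8, which also rose in esiFLI1 in the blocked fit, the window lies inside the gene's RefSeq span and is not printed. That window held 2 GGAA sites, and 76.5% of all windows held at least 2. These matches describe letters in a short window, not bound sites.

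VIM encodes vimentin and was the most abundant member in every library, ranking between place 20 and place 91 among all symbols. VIM had 1824 and 1463 FPKM in esiFLI1, 970.5 and 802.5 in esiUSP9X, and 1198 and 985 in esiGFP. Both esiFLI1 libraries lay above all others, and both esiUSP9X libraries lay below the controls. Libraries that do not overlap between groups were found for 37.1% of kept genes in the esiFLI1 comparison (19.8% higher, 17.3% lower) and 16.6% in the esiUSP9X comparison (8.75% higher, 7.82% lower). The log2 change of VIM in esiFLI1 was 0.59 (SE 0.21, limma adjusted p = 0.28), a rise called in the blocked fit (adjusted p = 0.0028), with 0.61 and 0.57 in the replicates. From bulk RNA, more cells of one kind and more RNA per cell cannot be told apart.

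In esiUSP9X the log2 change of VIM was -0.30 (SE 0.21, limma adjusted p = 1; blocked adjusted p = 0.34), with -0.30 in each replicate. Its 95% interval was -0.84 to 0.24 without the block. The blocked 95% interval was -0.53 to -0.07, so in the blocked fit VIM missed the call after adjustment over all genes. The transcript VIM-AS1, which runs antisense to VIM, had 0.929 and 1.53 FPKM in esiFLI1, 0.801 and 1.09 in esiUSP9X, and 0.649 and 1.26 in esiGFP. Reads of the 2 genes may be mixed, since the sources used here do not say whether counting used the strand.

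NES encodes nestin, the large filament protein of neural and muscle progenitors. NES had 52.8 and 40.3 FPKM in esiFLI1, 14.4 and 11.9 in esiUSP9X, and 17.8 and 12.8 in esiGFP. The esiFLI1 libraries stood clear of the other 4, while esiUSP9X and esiGFP overlapped. Its log2 change in esiFLI1 was the largest of the members, 1.55 (SE 0.26, limma adjusted p = 0.054), called once the block was added (adjusted p = 4.0e-05). With no block term it passed under quantile normalization (0.041), median scaling (0.032) and scaling to a common sum without MIR6723 (0.023), with 0.30 as the highest value over the alternatives. In esiUSP9X the change was -0.19 (SE 0.26, limma adjusted p = 1; blocked 95% interval -0.42 to 0.04), and without esiGFP 1 it was 0.03.

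Other markers of neural progenitors were mixed in the same libraries. Of 11 such markers, 8 were kept, and in esiFLI1 limma called 0 higher and 1 lower without a block and 3 higher and 3 lower with it. Over all kept genes the shares were 2.58% higher and 0.230% lower without the block, and 20.6% and 21.6% with it. The markers summed to 96.4 to 101 FPKM in esiFLI1, 118 to 122 in esiUSP9X and 120.4 to 125 in esiGFP. HES1 and SOX2 held most of that sum, so it says little of the other markers. Their means were 32.6 and 35.8 FPKM in esiFLI1, 46.8 and 48.0 in esiUSP9X, and 56.5 and 39.3 in esiGFP. SOX9 went the other way from HES1, with means of 20.3 FPKM in esiFLI1, 9.90 in esiUSP9X and 10.9 in esiGFP. HES5, a Notch target of progenitors, was listed at 0 in all libraries. The part of such cells in the NES change was not tested.

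**Figure D1:**
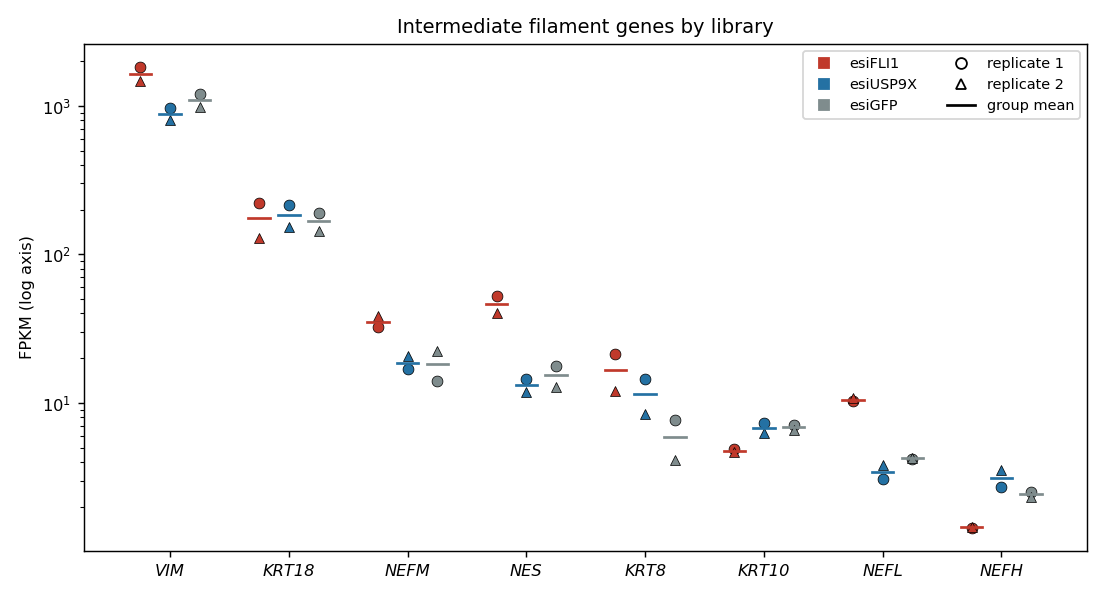
FPKM of the 8 kept members (log axis) in each library, with esiFLI1 left, esiUSP9X in the middle and esiGFP right, circles for replicate 1, triangles for replicate 2 and a line at the group mean. VIM at 1644 FPKM and NES at 46.6 FPKM in esiFLI1 stand above the other groups, and NEFH at 1.45 FPKM stands below them.

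The neurofilament genes encode the light (NEFL), medium (NEFM) and heavy (NEFH) subunits of the filaments that set axon calibre, and they did not move as a unit. NEFL had 10.3 and 10.7 FPKM in esiFLI1, 3.05 and 3.80 in esiUSP9X, and 4.18 and 4.28 in esiGFP. It was the only member called in esiFLI1 without a block, with a log2 change of 1.14 (SE 0.18, limma adjusted p = 0.049; blocked 2.5e-04). That call sat at the threshold. It ended without any of the 6 libraries (limma adjusted p from 0.18 to 0.30), while the blocked call held without each of them (adjusted p at most 0.012). It also ended with all libraries under a pseudocount of 0.1 (limma adjusted p = 0.056) or 0.01 (0.059), no filter (0.071), a 5 FPKM filter (0.079), quantile normalization (0.11), median scaling (0.079) and a fit of the 2 groups alone (0.19).

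NEFM had 32.4 and 38.3 FPKM in esiFLI1, 16.8 and 20.6 in esiUSP9X, and 13.99 and 22.4 in esiGFP. The esiFLI1 libraries were above all the others, and the esiUSP9X libraries lay between the controls. Its log2 change in esiFLI1 was 0.95 (SE 0.28, limma adjusted p = 0.18), a rise called in the blocked fit (adjusted p = 8.9e-04). In esiUSP9X it was 0.07 (SE 0.28, limma adjusted p = 1), with 0.25 and -0.12 in the replicates.

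NEFH went the other way. NEFH had 1.44 and 1.47 FPKM in esiFLI1, 2.73 and 3.54 in esiUSP9X, and 2.51 and 2.33 in esiGFP. Both esiFLI1 libraries were below the rest, and both esiUSP9X libraries were above the controls. The log2 change in esiFLI1 was -0.48 (SE 0.17, limma adjusted p = 0.27), a fall called in the blocked fit (adjusted p = 0.021). The blocked call ended without esiFLI1 1 (0.079), esiFLI1 2 (0.13) or esiGFP 1 (0.14), and the adjusted p ran from 0.011 to 0.62 over all alternatives. In esiUSP9X the change was 0.27 (SE 0.17, limma adjusted p = 1; blocked 95% interval -0.04 to 0.57).

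The make-up of the triplet differed between the groups. NEFH was 3.27% and 2.91% of the summed neurofilament FPKM in esiFLI1, 12.1% and 12.7% in esiUSP9X, and 12.2% and 8.05% in esiGFP. NEFL was 23.3% and 21.3% in esiFLI1, 13.5% and 13.6% in esiUSP9X, and 20.2% and 14.8% in esiGFP. The ratio of NEFH to NEFL was 0.140 and 0.137 in esiFLI1, 0.895 and 0.930 in esiUSP9X, and 0.601 and 0.545 in esiGFP, so the 3 groups did not overlap. The other ratios of the triplet did overlap. For NEFH to NEFM, esiUSP9X (0.162 and 0.172) overlapped esiGFP (0.180 and 0.104). For NEFL to NEFM, esiFLI1 (0.317 and 0.281) overlapped esiGFP (0.299 and 0.191). All of them restate the levels above within each library. With 2 libraries against 2, an exact two-sided permutation test cannot go below 0.333, so these ratios are given as a description. NEFM and NEFL are neighbours among the protein-coding genes of RefSeq's GRCh38.p14, and NEFH lies on another chromosome.

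Neuronal markers were also mixed. Of 16, 10 were kept, and in esiFLI1 limma called 2 higher and 0 lower without a block and 5 higher and 4 lower with it. Among all kept genes, 2.58% were called higher and 0.230% lower without the block, and 20.6% and 21.6% with it. The markers summed to 472 to 828 FPKM in esiFLI1, 451 to 688 in esiUSP9X and 557 to 931 in esiGFP. UCHL1 and TUBB3 held most of that sum, so it says little of the other markers. Their means were 421 and 121 FPKM in esiFLI1, 380 and 122 in esiUSP9X, and 479 and 177 in esiGFP. ELAVL4 and DCX were listed at 0 in all libraries. Of the kept markers, MAP2, a dendrite microtubule protein, and NCAM1, a cell adhesion protein, passed the filter only through the esiFLI1 libraries. MAP2 is among those counted as higher without the block, and both are among those counted as higher with it. Their higher level in esiFLI1 admitted both to testing, so their calls do not count as support for a rise. What part neuron-like cells have in the neurofilament values was not tested.

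**Figure D2:**
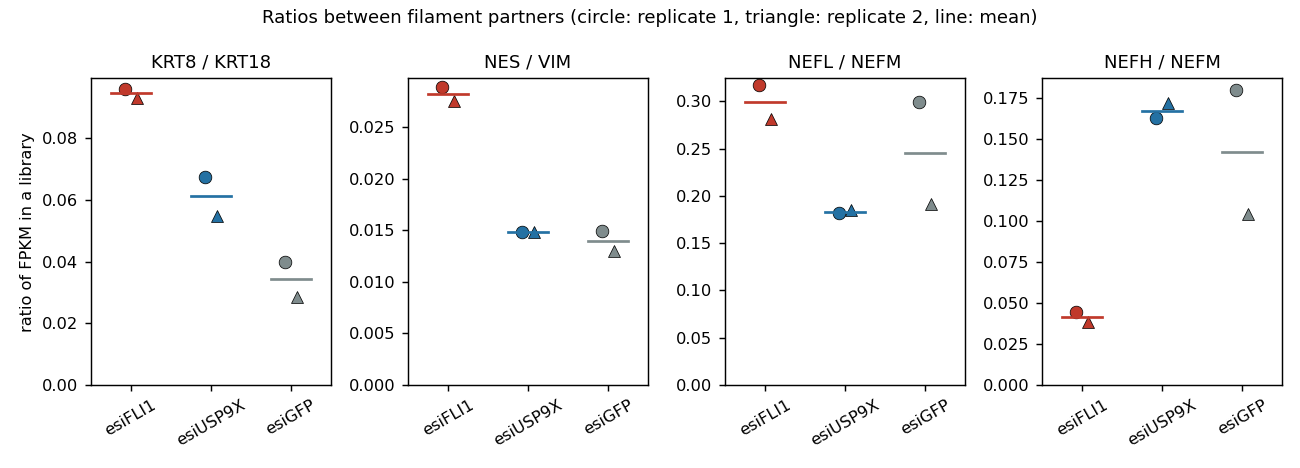
Ratio of FPKM within a library (vertical axes start at 0) for KRT8 over KRT18, NES over VIM, NEFL over NEFM and NEFH over NEFM, in esiFLI1, esiUSP9X and esiGFP, with a circle for replicate 1, a triangle for replicate 2 and a line at their mean. KRT8 over KRT18 averages 0.0947 in esiFLI1, 0.0612 in esiUSP9X and 0.0343 in esiGFP.

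KRT8 and KRT18 encode the basic and the acidic keratin that pair in simple epithelia. KRT18, the second most abundant member, had 221 and 129 FPKM in esiFLI1, 215 and 153 in esiUSP9X, and 191 and 144 in esiGFP. The groups overlapped fully, and the replicates differed more than the groups. Its log2 change was 0.03 in esiFLI1 (SE 0.35, limma adjusted p = 0.99; blocked 95% interval -0.24 to 0.29) and 0.13 in esiUSP9X (SE 0.35, limma adjusted p = 1; blocked 95% interval -0.13 to 0.40).

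KRT8 was the only member called in both knockdowns against the control, in each case only with the block. KRT8 had 21.3 and 12.03 FPKM in esiFLI1, 14.5 and 8.39 in esiUSP9X, and 7.63 and 4.12 in esiGFP. Replicate 1 exceeded replicate 2 in each group, and within a replicate number the order was esiFLI1, esiUSP9X, esiGFP. The libraries of either knockdown did not overlap those of esiGFP. In esiFLI1 the log2 change was 1.36 (SE 0.44, limma adjusted p = 0.22), called in the blocked fit (SE 0.10, adjusted p = 6.0e-05). In esiUSP9X it was 0.86 (SE 0.44, limma adjusted p = 1), called in the blocked fit (SE 0.10, adjusted p = 0.021). The replicates gave 0.85 and 0.88.

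The KRT8 change in esiUSP9X was the 37th highest of the 12169 kept genes. Its blocked call ended without esiFLI1 1 (limma adjusted p = 0.13), esiFLI1 2 (0.12), esiUSP9X 1 (0.22) or esiUSP9X 2 (0.21), and the log2 change stayed between 0.84 and 0.88 in the blocked fits. Over all alternatives the adjusted p ran from 2.3e-04 to 1. Both knockdowns were set against the same 2 control libraries, so the 2 KRT8 results share them.

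The ratio of KRT8 to its partner KRT18 restates the levels above within each library, and was chosen with them known. The KRT8 to KRT18 ratio was 0.0961 and 0.0933 in esiFLI1, 0.0674 and 0.0549 in esiUSP9X, and 0.0399 and 0.0287 in esiGFP. The 3 groups did not overlap, given as a description with no test. KRT8 and KRT18 are neighbours whose RefSeq spans overlap, and GENCODE release 29 lists 50 KRT8 and 67 KRT18 pseudogene symbols, of which the table holds 1 each. The levels of both keratins are uncertain, since the sources used here do not say how shared reads were assigned.

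KRT10 encodes an acidic keratin of differentiating epidermis. KRT10 had 4.90 and 4.64 FPKM in esiFLI1, 7.36 and 6.29 in esiUSP9X, and 7.15 and 6.61 in esiGFP. Both esiFLI1 libraries were below the rest, and the other groups overlapped. Its log2 change in esiFLI1 was -0.45 (SE 0.18, limma adjusted p = 0.33), a fall called in the blocked fit (adjusted p = 0.011). The blocked call ended without esiFLI1 1 (0.062) or esiGFP 2 (0.068), and the adjusted p ran from 0.0081 to 0.68 over all alternatives. In esiUSP9X the change was -0.01 (SE 0.18, limma adjusted p = 1; blocked 95% interval -0.25 to 0.23).

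KRT19, an acidic keratin of ducts and simple epithelia, was listed at 0 in both esiFLI1 libraries, at 0 and 0.230 FPKM in esiUSP9X, and at 0.155 and 0.0862 in esiGFP. DES, which encodes desmin, was listed at 0.162 and 0.0518 FPKM in esiFLI1, 0 and 0.0744 in esiUSP9X, and 0.0603 and 0 in esiGFP. Neither was tested, and with no depth known these low values cannot be ordered. Of 15 epithelial markers 2 were kept, with a sum of 4.01 to 8.83 FPKM in esiFLI1, 2.74 to 4.12 in esiUSP9X and 2.99 to 5.11 in esiGFP. CDH1, which encodes E-cadherin, was listed at 0 in all libraries. Of 16 striated muscle markers 1 was kept, with a sum of 8.86 to 12.2 FPKM in esiFLI1, 7.86 to 9.73 in esiUSP9X and 5.02 to 8.03 in esiGFP, and the myogenic factor MYOD1 was listed at 0 in all libraries.

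**Figure D3:**
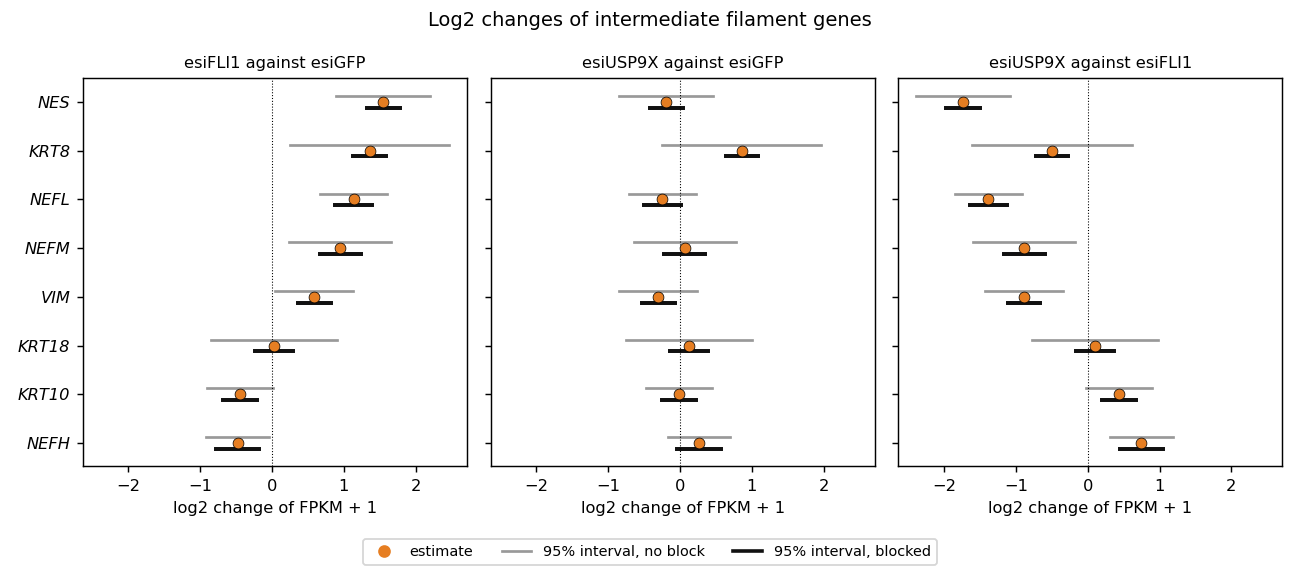
Log2 change of FPKM + 1 (horizontal axis) for each kept member in the 3 comparisons, as orange points with 95% intervals from limma without a block (grey) and with the replicate block (black). NES at 1.55 and KRT8 at 1.36 lead in esiFLI1 against esiGFP, and KRT8 at 0.86 stands apart in esiUSP9X against esiGFP.

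Counted over the 8 kept members, limma called 1 higher and 0 lower in esiFLI1 without a block, and 5 higher and 2 lower with it. The background shares were 2.58% higher and 0.230% lower without the block, and 20.6% and 21.6% with it. The median log2 change of the members was 0.77, against -0.03 over all kept genes. In esiUSP9X limma called 0 members without a block, with 0 at an unadjusted p under 0.05, and 1 with the block, where 0.0740% of kept genes were called higher and 0.164% lower. Without the block 0.0247% of kept genes were called in esiUSP9X, and 114 of 12169 had an unadjusted p under 0.05. The median there was 0.03, against -0.01 over all kept genes.

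Setting esiUSP9X against esiFLI1 tests directly whether the knockdowns differ. Limma called NES and NEFL lower in esiUSP9X and 0 members higher without a block, where 3.08% of kept genes were called, 2.66% lower and 0.419% higher. With the block it called 5 members lower and 2 higher, where 41.1% of kept genes were called, 20.9% lower and 20.2% higher. The libraries of VIM, NES, NEFL and NEFM were all lower in esiUSP9X, and those of KRT10 and NEFH all higher, while 39.5% of kept genes did not overlap, 21.1% lower and 18.4% higher. The median log2 change of the members was -0.69, against 0.02 over all kept genes. NES had 14.4 and 11.9 FPKM in esiUSP9X, against 52.8 and 40.3 in esiFLI1 (log2 change -1.74, SE 0.26, limma adjusted p = 0.039). NEFL was lower by a log2 change of -1.38 (SE 0.18, limma adjusted p = 0.030). Without any single library both ended without a block (limma adjusted p from 0.081 to 0.30 for NES and from 0.096 to 0.33 for NEFL), and both held in every blocked fit. With all libraries, NES also ended under the 5 FPKM filter (0.054) and with the 2 groups alone (0.083), and NEFL under quantile normalization (0.065) and with the 2 groups alone (0.10).

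In the blocked fit VIM (-0.89, limma adjusted p = 4.3e-04), NEFM (-0.88, adjusted p = 0.0012) and KRT8 (-0.50, adjusted p = 0.0055) were also lower in esiUSP9X than in esiFLI1. Without a block VIM was called lower under quantile normalization (limma adjusted p = 0.029) and scaling to a common sum without MIR6723 (0.043), and in the full fit it was not (0.12). NEFH (0.75, limma adjusted p = 0.0032) and KRT10 (0.44, adjusted p = 0.012) were higher. The KRT8 call ended without esiUSP9X 1 (limma adjusted p = 0.051), and its adjusted p ran from 0.0012 to 0.96 over all alternatives. The NEFH call ended without esiFLI1 2 (limma adjusted p = 0.0503), with at most 0.64 over all alternatives. The KRT10 call ended without esiFLI1 1 (limma adjusted p = 0.067), esiFLI1 2 (0.052) or esiUSP9X 1 (0.10), with at most 0.99 over all alternatives. KRT18 was not called, with a log2 change of 0.10 (SE 0.35, limma adjusted p = 0.95).

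The sum of the 10 members was 2169 and 1700 FPKM in esiFLI1, 1245 and 1010 in esiUSP9X, and 1442 and 1181 in esiGFP. VIM made up 84.1% and 86.1% of it in esiFLI1, 78.0% and 79.5% in esiUSP9X, and 83.0% and 83.4% in esiGFP. KRT18 made up 10.2% and 7.59% in esiFLI1, 17.3% and 15.1% in esiUSP9X, and 13.3% and 12.2% in esiGFP. VIM and KRT18 hold nearly all of the sum, so their shares move against each other, and the FPKM of KRT18 itself overlapped between the groups.

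The members also differed in how they separated the replicates. KRT8, KRT18, VIM, NES and KRT10 were higher in replicate 1 than in replicate 2 in all 3 groups. On the log2 scale the difference was 0.73 to 0.77 for KRT8, 0.27 to 0.32 for VIM and 0.0645 to 0.198 for KRT10. NEFL and NEFM were lower in replicate 1 in all 3 groups, by -0.029 to -0.245 for NEFL and by -0.23 to -0.64 for NEFM. The median log2(FPKM + 1) of all kept genes was also higher in replicate 1. It was 3.73 against 3.59 in esiFLI1, 3.70 against 3.575 in esiUSP9X and 3.71 against 3.57 in esiGFP. What the replicate numbers stand for is not stated in the labels.

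Among the other intermediate filament genes, SYNM was the only one called in esiFLI1 without a block. SYNM encodes synemin, which co-assembles with vimentin and desmin and cannot form filaments alone. SYNM had 10.8 and 12.7 FPKM in esiFLI1, 3.23 and 3.95 in esiUSP9X, and 2.90 and 3.14 in esiGFP. It rose in esiFLI1 by a log2 change of 1.66 (SE 0.19, limma adjusted p = 0.023) and was lower in esiUSP9X than in esiFLI1 (-1.47, adjusted p = 0.030). Without any single library both SYNM calls ended (limma adjusted p from 0.078 to 0.18 in esiFLI1 and from 0.094 to 0.32 between the knockdowns), and both held in every blocked fit. The nuclear lamin LMNB1 fell in the blocked fit only (-0.29, limma adjusted p = 0.049), a call that ended without any single library (0.076 to 0.33). Of 12 such genes 9 were kept, with 1 higher and 1 lower in the blocked fit in esiFLI1, a median of 0.03, and 0 called in esiUSP9X with or without the block. In esiFLI1 the blocked fit called 20.6% of all kept genes higher and 21.6% lower. The shares called in esiUSP9X were 0.0247% without the block and 0.238% with it. Against esiFLI1, the lens filament gene BFSP1 (0.39, blocked adjusted p = 0.045) and the neuronal filament gene INA (0.32, blocked adjusted p = 0.049) were higher in esiUSP9X. The INA call ended without any single library (blocked adjusted p from 0.054 to 0.27), and the BFSP1 call without esiFLI1 1 (0.060), esiFLI1 2 (0.26), esiUSP9X 1 (0.054) or esiUSP9X 2 (0.32). In esiUSP9X against esiGFP, LMNB1 changed by -0.04 and the lamin gene LMNA by -0.17, with a limma adjusted p of 1 for each.

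Of 50 other keratin genes, only KRT80 and KRT17 were kept, and 23 were listed at 0 in all libraries. KRT80 had 3.80 and 2.01 FPKM in esiFLI1, 0.563 and 0.355 in esiUSP9X, and 0.702 and 0.251 in esiGFP, so it passed the filter only through esiFLI1. KRT17, a keratin of basal and stressed epithelium, had 7.60 and 3.20 FPKM in esiFLI1, 12 and 6.65 in esiUSP9X, and 14.5 and 9.95 in esiGFP. The higher level thus admitted KRT80 to testing, so its log2 change of 1.38 in esiFLI1 is given with no test. KRT17 fell in esiFLI1 in the blocked fit (-1.12, limma adjusted p = 7.0e-04). Neither was called in esiUSP9X (limma adjusted p = 1 for each), where the log2 changes were -0.0035 for KRT80 and -0.39 for KRT17.

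Proteins that tie filaments to junctions and to the rest of the cytoskeleton were mixed in esiFLI1. PKP1, the desmosomal plaque protein plakophilin 1, had 65.3 and 37.8 FPKM in esiFLI1, 154 and 104 in esiUSP9X, and 176 and 127 in esiGFP. DST, a plakin that links filaments to other structures, had 19.0 and 32.6 FPKM in esiFLI1, 10.7 and 15.2 in esiUSP9X, and 7.25 and 10.6 in esiGFP. In the blocked fit PKP1 fell (-1.57, limma adjusted p = 5.0e-05), and DST (1.41, adjusted p = 9.1e-05), plakoglobin, JUP (0.84, adjusted p = 0.0042), and the nesprin SYNE3, which binds plectin (0.61, adjusted p = 0.0065), rose. Of 18 such genes 9 were kept, with 0 called in esiFLI1 without a block, 2 at an unadjusted p under 0.05, and 4 higher and 2 lower with it. Of all 12169 kept genes, 1923 had an unadjusted p under 0.05, and the blocked fit called 20.6% higher and 21.6% lower. The median log2 change of the 9 was 0.29. Without single libraries the blocked calls in this list numbered 3 to 6. The JUP call ended without esiFLI1 1 (limma adjusted p = 0.062) or esiFLI1 2 (0.059), and the SYNE3 call without esiFLI1 2 (0.062), while the PKP1 and DST calls held.

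In esiUSP9X no cytolinker or desmosome gene was called (0 in either limma fit), with 1 at an unadjusted p under 0.05, as were 114 of all 12169 kept genes. Limma called 0.0247% of all kept genes there without the block and 0.238% with it. The gene at an unadjusted p under 0.05 was PKP2, with the largest change of the list (0.59, limma unadjusted p = 0.028; blocked adjusted p = 0.14). PKP1 changed by -0.24 and plectin, PLEC, by -0.28, with a limma adjusted p of 1 for each. Against esiFLI1, PKP1 (1.33) and PKP2 (0.96) were higher in esiUSP9X in the blocked fit, and DST (-0.91) and SYNE3 (-0.86) were lower, with limma adjusted p of at most 0.0015.

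Of the chaperones and kinases that act on filaments, the small heat shock gene CRYAB gave the largest change in esiFLI1. CRYAB, alpha B-crystallin, a chaperone of desmin and vimentin, had 47.6 and 31.2 FPKM in esiFLI1, 1.77 and 1.10 in esiUSP9X, and 1.66 and 0.910 in esiGFP. HSPB8 had 1.02 and 1.05 FPKM in esiFLI1, 0.144 and 0.0616 in esiUSP9X, and 0.0554 and 0.0639 in esiGFP, and passed the filter only through esiFLI1. CRYAB rose in esiFLI1 (4.13, SE 0.31, limma adjusted p = 0.0090). That call ended without esiGFP 1 (0.086) or esiGFP 2 (0.098) and held in every blocked fit. The higher level admitted HSPB8 to testing, so its log2 change of 0.94 is given with no test. HSPB1, the most abundant of the small heat shock genes in this list, did not pass the test (-0.09, limma adjusted p = 0.97).

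In esiFLI1, the mitotic kinase PLK1 (-0.52, limma adjusted p = 0.014) and the keratin-binding protein trichoplein, TCHP (-0.45, adjusted p = 0.0087), fell in the blocked fit. The PLK1 call ended without esiFLI1 2 (limma adjusted p = 0.097) or esiGFP 2 (0.051), and the TCHP call without esiGFP 2 (0.062). All 18 genes of this list were kept, with 2 higher, HSPB8 among them, and 4 lower in the blocked fit and a median of -0.04. HSPB8 was admitted to testing by its level in esiFLI1, so its call does not count as support for a rise. The blocked fit called 20.6% of all kept genes higher and 21.6% lower. Without single libraries the blocked calls in this list numbered 2 to 6. Limma called 0 of the 18 in esiUSP9X in either fit, with 0 at an unadjusted p under 0.05, where CDK1 changed by -0.05 and HSPB1 by 0.05. Of all 12169 kept genes, 0.0247% were called there without the block and 0.238% with it, and 114 had an unadjusted p under 0.05. Against esiFLI1, CRYAB was lower in esiUSP9X (-4.03, limma adjusted p = 0.0089), a call that ended without esiUSP9X 1 (0.11) or esiUSP9X 2 (0.095) and held in every blocked fit. PLK1 was higher in the blocked fit (0.55, adjusted p = 0.011), but not without esiFLI1 2 (0.077) or esiUSP9X 2 (0.13).

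**Figure D4:**
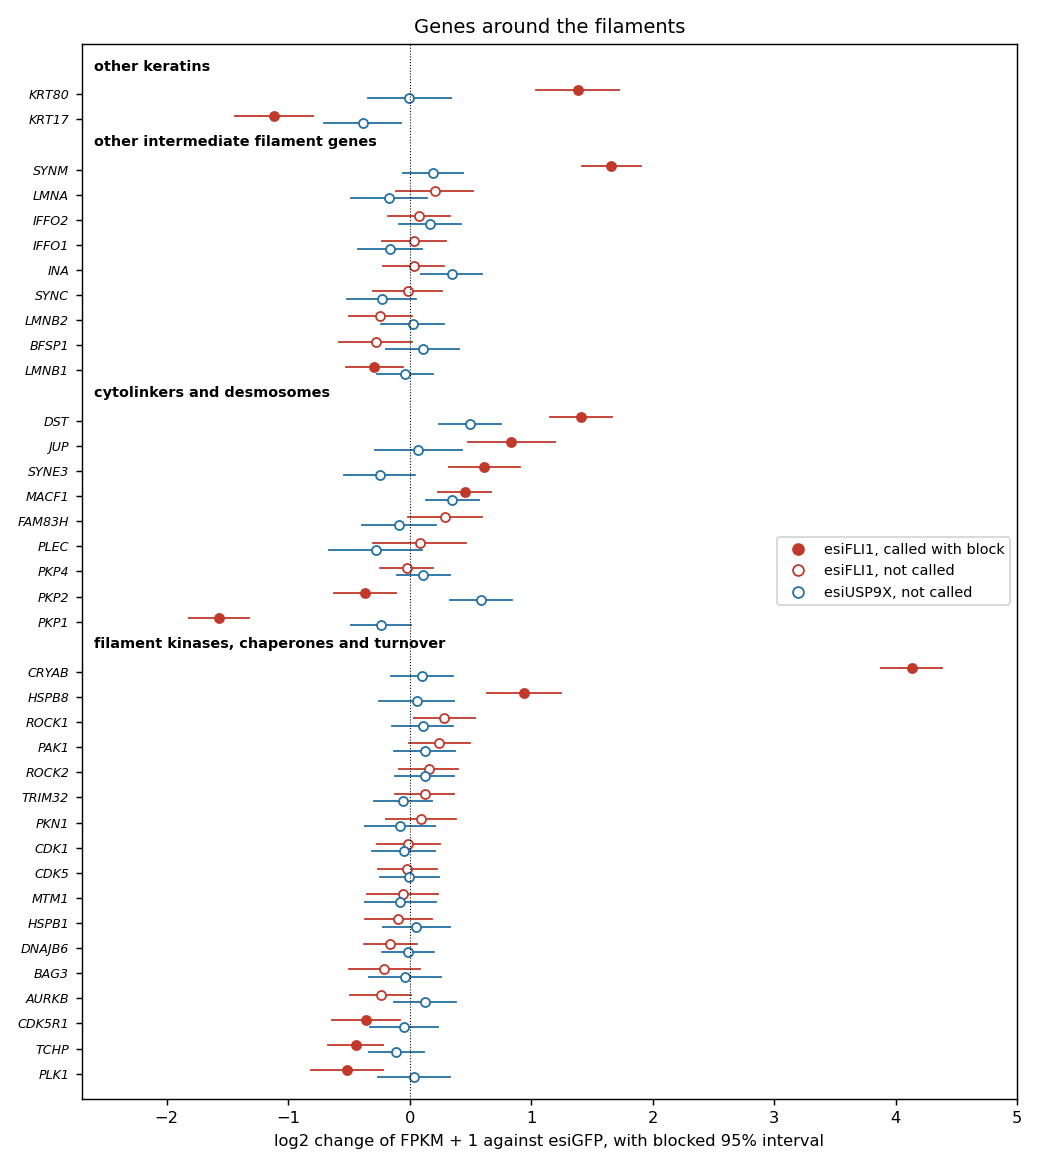
Log2 change of FPKM + 1 against esiGFP (horizontal axis) with blocked 95% intervals for kept genes of 4 lists, in esiFLI1 (red) above esiUSP9X (blue), filled where called in the blocked fit. CRYAB at 4.13 and SYNM at 1.66 lead in esiFLI1, and no gene is filled in esiUSP9X. KRT80 and HSPB8 passed the filter only through esiFLI1, so their filled points do not count as support for a rise.

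Most fibroblast and smooth muscle markers, which vimentin-rich cells express, were higher in the same esiFLI1 libraries. Of 13 fibroblast and mesenchymal markers 12 were kept, with a sum of 1370 to 2591 FPKM in esiFLI1, 321 to 525 in esiUSP9X and 261 to 541 in esiGFP, and limma called 5 higher and 0 lower in esiFLI1 (11 and 1 blocked). The collagen genes COL1A1, COL1A2 and COL3A1 held most of that sum, so it says little of the other markers. THY1 was the marker called lower in the blocked fit (-0.55, limma adjusted p = 0.0069). Of 4 smooth muscle markers 3 were kept, with a sum of 141 to 228 FPKM in esiFLI1, 54.8 to 72.5 in esiUSP9X and 89.6 to 96.1 in esiGFP, and limma called 0 in esiFLI1 without a block and 3 higher with it. Of these, CNN1 was kept only through esiFLI1, so its call does not count as support for a rise. Over all kept genes, limma called 2.58% higher and 0.230% lower in esiFLI1 without the block, and 20.6% and 21.6% with it. Of 7 blood and endothelial markers, 0 were kept. The part of the fibroblast and smooth muscle markers in the VIM, NES and SYNM changes was not tested.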

How the data were processed

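RNA was sequenced from 6 libraries of A673 cells. Stranded libraries were made from 2 µg of total RNA after removal of ribosomal RNA and read as 75-nt single ends, per the labels' protocols. The deposited values are FPKM made by the authors, with Cufflinks, Cuffdiff and TopHat listed as tools, and GRCh37 and hg19 as builds, per the submitters' processing notes, which give no versions. A stray last line (1) was dropped, and 0 columns belonged to no sample.

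Log2(FPKM + 1) of 12169 genes with at least 1 FPKM in 2 libraries was modelled by limma 3.58.1 under R 4.3.3 (lmFit, eBayes with a trend, all 6 libraries in 1 fit, two-sided, Benjamini-Hochberg over all kept genes). SE and intervals come from the fit, which had 3 residual and 2.21 prior degrees of freedom. The log2(FPKM + 1) scale understates changes of low genes. The labels give replicates 1 and 2 but no shared day or culture, so p-values measure the spread between these samples only. Deviations from the group means correlated at 0.647 for esiFLI1 and esiGFP, 0.589 for esiUSP9X and esiGFP, and 0.644 for esiUSP9X and esiFLI1, so the pairing behind the replicate block comes from the data. That fit had 2 residual and 5.72 prior degrees of freedom.

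The members and gene lists were chosen with earlier results of these data known. The text names all members and, per list and comparison, up to 4 genes called without the block, filled from blocked calls, or the 2 most abundant if none was called. MAP2, NCAM1, UCHL1, TUBB3, ELAVL4, DCX, HES5, CNN1, CDH1, MYOD1, CD99 and VIM-AS1, and HSPB1 in esiFLI1, were named after their values were seen. So were HES1, SOX2, SOX9, THY1, COL1A1, COL1A2 and COL3A1, and PKP2 in esiUSP9X against esiGFP. Promoter windows were in the RefSeq table for VIM, NES, KRT10 and KRT8. The KRT8 window lies inside the gene's RefSeq span and is not printed. KRT18, KRT19, DES, NEFL, NEFM and NEFH had no entry used here. A gene that this rule names is not reported here. Alternatives were another pseudocount, filter, scaling, sample set, treatment of listed 0 values, and leaving out each library.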

Additional observations from a re-analysis of the deposited data

How the results depend on the processing

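Depth is unknown, so low values carry no counting error, and 2 libraries a group limit every test. Over 549 results on members and alternatives, 413 kept their direction and their side of the threshold, 87 gained a call, 29 lost one and 20 turned round. The cause of these changes was not tested, beyond the smaller sample where a library was left out.

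With the replicate block, 7 members and 5125 kept genes were called in esiFLI1 against esiGFP, 1 and 29 in esiUSP9X against esiGFP, and 7 and 4996 in esiUSP9X against esiFLI1, in place of 1 and 342, 0 and 3, and 2 and 375. Median scaling with the block gave 7 and 5245, 1 and 41, and 7 and 5196. In esiFLI1, 91.8% of calls were higher without the block and 48.8% with it. In esiFLI1 against esiGFP, 0 members were called with a pseudocount of 0.1 or 0.01, with no filter (558 genes), with a filter of 5 FPKM (139 genes) and with only the 2 groups compared (56 genes), and 2 with scaling to a common sum without MIR6723 (566 genes). That scaling put the median change of all genes at 0.12, against -0.03. In esiUSP9X against esiGFP, taking listed 0 values as missing left 0 genes called. In esiUSP9X against esiFLI1, the 5 FPKM filter left 1 member and 154 genes, the 2 groups alone 0 and 69, and the common sum gave 568 genes.

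Without single libraries and without a block, 0 members were called in each comparison, and 2 to 136 genes in esiFLI1, 3 to 5 in esiUSP9X and 3 to 148 between the knockdowns. A group left with 1 library was assumed to vary like the others. With the block, and without esiFLI1 1, esiFLI1 2, esiUSP9X 1, esiUSP9X 2, esiGFP 1 and esiGFP 2 in turn, members called in esiFLI1 numbered 5, 6, 7, 7, 6 and 6, and genes 3679, 2640, 4670, 4663, 4310 and 3469. In esiUSP9X the genes numbered 10, 9, 16, 13, 211 and 271, with 1 member without either esiGFP library and 0 otherwise. Between the knockdowns members numbered 6, 5, 5, 7, 7 and 7, and genes 3623, 2637, 2724, 2852, 5378 and 5370.

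The results that turned round were called in neither fit. KRT18 in esiFLI1 was -0.36 without esiFLI1 1 (-0.13 with the block), -0.18 without esiGFP 2, and -0.083 without esiGFP 1 with the block. In esiUSP9X, KRT10 was 0.034 under the common sum, 0.086 without esiUSP9X 2 (0.045 with the block), 0.037 without esiGFP 1 and 0.0035 without esiGFP 2 with the block. KRT18 was -0.12 without esiUSP9X 1 and -0.07 without esiGFP 2. NEFM was -0.07 without esiUSP9X 2, -0.25 without esiGFP 1 (-0.13 with the block) and -0.015 without esiUSP9X 1 with the block, and NES was 0.035 without esiGFP 1. Between the knockdowns, KRT18 was -0.0003 under the common sum, -0.29 without esiFLI1 2 (-0.059 with the block) and -0.14 without esiUSP9X 1.

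Without a block and over all single libraries left out, KRT18 ran from -0.36 to 0.42 in esiFLI1, from -0.12 to 0.38 in esiUSP9X and from -0.29 to 0.49 between the knockdowns. In esiUSP9X, KRT10 ran from -0.11 to 0.086, NES from -0.42 to 0.035 and NEFM from -0.25 to 0.39.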
